A study of Mus musculus with 4 samples.

Results

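The 10 genes described here mark or control the epithelial-mesenchymal transition (EMT). They were chosen by name, with earlier results of these data known. They were the transcription factors Snai1, Snai2, Twist1, Zeb1 and Zeb2, the mesenchymal markers Vim, Cdh2 and Fn1, and the epithelial splicing regulators Esrp1 and Esrp2. Each had 1 entry among the 34721 entries of the expression table. Of the 10 genes, 8 reached 1 FPKM in at least 1 line, together with 14165 genes in all, and Zeb1 and Cdh2 did not. FPKM counts the sequenced fragments of a gene per length of its transcript and per depth of its library, so levels can be set side by side. Differences between lines still depend on the normalisation, and alternatives to it are given below.

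The 4 lines came from 2 male C57BL/6 mice whose buccal mucosa was treated with the carcinogen 7,12-dimethylbenzanthracene (DMBA) until oral tumors formed. AOC3 came from the primary oral tumor and AOC3-LN from a lymph node metastasis of mouse 3, and AOC11 and AOC11-LN were the matching lines of mouse 11. All lines were grown once as tumors under the flank skin of C57BL/6 mice, were then separated from fibroblasts with an isolation kit, and were kept in DMEM/F12 with serum without further treatment. Each line gave 1 RNA library from cultured cells, so a difference between mice rests on 2 lines per mouse and a difference between a lymph node line and its primary line on 1 library against 1.

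In EMT, cells of an epithelium give up their junctions and polarity and take up the shape and motility of mesenchymal cells. Snai1, Snai2, Zeb1, Zeb2 and Twist1 encode DNA-binding proteins that bind E-box sequences, and the Snail and Zeb proteins repress Cdh1, the gene of E-cadherin, the adhesion protein of epithelial junctions. Vimentin (Vim) is the intermediate filament protein of mesenchymal cells, N-cadherin (Cdh2) is their classical cadherin and fibronectin (Fn1) is a matrix glycoprotein. Esrp1 and Esrp2 keep the epithelial splice forms of many transcripts and are repressed by Zeb proteins in cells that complete the transition. Tumor cells can hold epithelial and mesenchymal genes at the same time, a state called partial EMT, which is often described in squamous cell carcinoma of the head and neck. The study examined E-cadherin, Zo-1 and vimentin protein in these lines to characterise them, and the transcript levels bear on the same question.

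The start regions of Vim, Twist1 and Snai1 are shown because Vim and Twist1 had the widest ranges over the lines and Snai1 had the largest shift between primary and lymph node line in mouse 3. The sequences are from RefSeq on GRCm38.p6, the build called mm10 that the deposited values rest on, and run from 250 bases before to 50 bases after a start site. RefSeq windows matched 4 of the 10 genes, with 1 window each for Snai1, Twist1 and Vim and 4 windows for Zeb2. Capitals mark the Snail-type E-box CACCTG or CAGGTG, the TATA box TATAAA and the GC box GGGCGG, each searched on both strands. Vim lies at chr2:13574061-13574360, Twist1 at chr12:33957421-33957720 and Snai1 at chr2:167537945-167538244, all on the plus strand.
Vim: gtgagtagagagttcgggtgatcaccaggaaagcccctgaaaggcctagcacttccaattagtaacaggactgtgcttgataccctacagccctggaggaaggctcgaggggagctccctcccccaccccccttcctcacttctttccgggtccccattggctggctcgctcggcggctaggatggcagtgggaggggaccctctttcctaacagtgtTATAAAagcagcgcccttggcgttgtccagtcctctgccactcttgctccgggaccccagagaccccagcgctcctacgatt
Twist1: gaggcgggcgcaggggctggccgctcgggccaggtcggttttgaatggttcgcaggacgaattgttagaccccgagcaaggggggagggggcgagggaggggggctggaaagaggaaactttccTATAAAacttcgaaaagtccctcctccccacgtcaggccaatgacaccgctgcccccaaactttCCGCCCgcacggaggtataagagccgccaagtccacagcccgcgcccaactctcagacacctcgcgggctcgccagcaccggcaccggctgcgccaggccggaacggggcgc
Snai1: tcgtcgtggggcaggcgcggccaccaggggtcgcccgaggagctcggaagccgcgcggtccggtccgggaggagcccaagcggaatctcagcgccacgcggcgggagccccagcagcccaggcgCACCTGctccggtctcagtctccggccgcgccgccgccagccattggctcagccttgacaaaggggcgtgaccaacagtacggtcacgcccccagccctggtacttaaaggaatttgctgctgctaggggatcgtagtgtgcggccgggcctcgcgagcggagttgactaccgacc
The Vim window held a TATA box 32 bases before the start site, and the Twist1 window held a TATA box at 126 bases and a GC box at 62 bases before it. The Snai1 window held 1 E-box, CACCTG, starting 126 bases before the start site. No E-box of the looser form CANNTG stood in the Vim or Twist1 window. Among 32851 promoter windows of the same length, 20.2% held the Snail-type E-box, 72.3% held CANNTG, 13.6% held the TATA box and 35.7% held the GC box. These matches describe the letters of the windows.

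**Figure D1:**
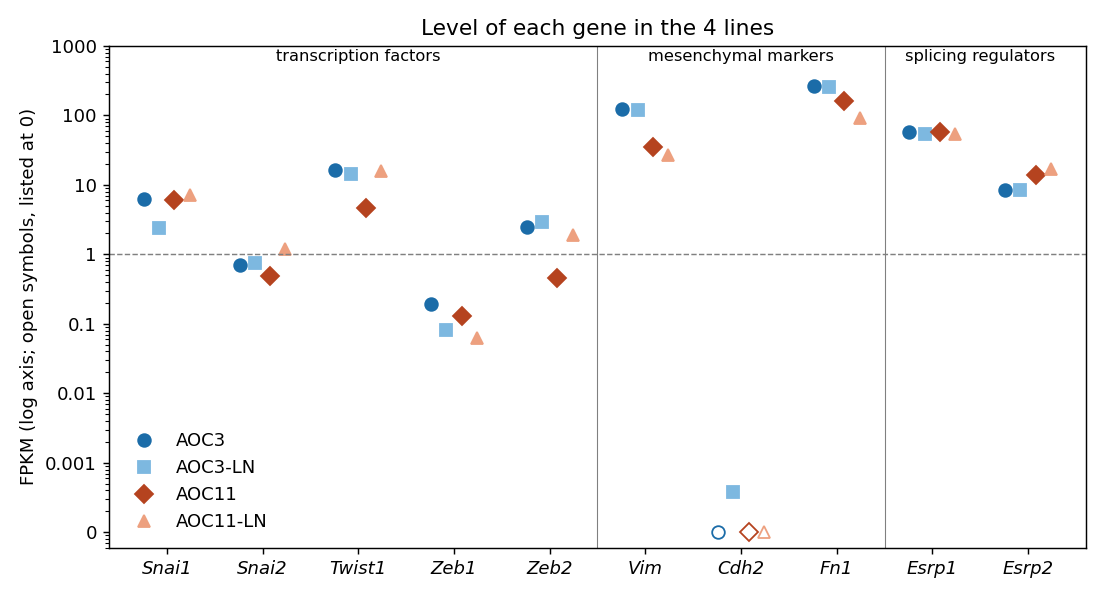
FPKM of the 10 genes in each line on a log axis, with 1 symbol per library and open symbols for genes listed at 0; the dashed line is 1 FPKM. Fn1, Vim and Esrp1 were at 27.2 FPKM or more in every line, while Zeb1 and Cdh2 were at 0.196 FPKM or less.

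Mesenchymal and epithelial genes were expressed side by side in all 4 lines. Fn1 was the highest of the 10 genes in every line, Vim or Esrp1 came next, and Cdh2 was the lowest. E-cadherin (Cdh1) was at 144 FPKM in AOC3 and 158 in AOC3-LN, against 151 in AOC11 and 183 in AOC11-LN. The epithelial surface protein gene Epcam was at 518, 509, 416 and 493 FPKM, in the order of lines that holds for every set of 4 values given without names. The level of Vim relative to Cdh1 was 0.848 in AOC3 and 0.748 in AOC3-LN, but 0.234 in AOC11 and 0.149 in AOC11-LN, so it was lower in both lines of mouse 11. The level of Fn1 relative to Cdh1 was 1.86, 1.64, 1.06 and 0.508 in that order. As these are bulk samples, fewer cells that express a gene and less RNA per cell cannot be told apart.

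Among the mesenchymal markers, Vim and Fn1 were abundant and Cdh2 was at or near 0. Vim (ENSMUSG00000026728.9, chr2:13573927-13582826) was at 122 FPKM in AOC3 and 118 in AOC3-LN, against 35.4 in AOC11 and 27.2 in AOC11-LN. Both lines of mouse 3 lay far above both lines of mouse 11, and the primary and lymph node line of each mouse lay close together. In mouse 3 Vim ranked at the 96.2 percentile of 19585 protein-coding entries in AOC3 and the 96.0 percentile in AOC3-LN, against 85.4 and 81.8 in AOC11 and AOC11-LN. Fn1 (ENSMUSG00000026193.15, chr1:71585520-71653200, minus strand) was at 268 FPKM in AOC3 and 259 in AOC3-LN, against 160.3 in AOC11 and 92.8 in AOC11-LN. The groups did not overlap for Fn1 either, but the lines of mouse 11 differed more from each other than those of mouse 3. Fn1 overlaps Apol7d on the opposite strand, which was at 16.9, 18.6, 12.3 and 7.79 FPKM and followed the same order of mice. The libraries were stranded, but the values came from default settings of TopHat2 and Cufflinks, taken here as not using strand. Reads where both genes overlap may then not be told apart, and the overlap of their exons was not checked. Cdh2 (ENSMUSG00000024304.14, chr18:16588877-16809246, minus strand) was listed at 0 in AOC3, AOC11 and AOC11-LN and at 0.000376 FPKM in AOC3-LN. At the depth estimated for these libraries, 3 fragments on its longest transcript would give between 0.0190 and 0.0226 FPKM, so Cdh2 was not detected and levels under that limit remain possible. P-cadherin (Cdh3), the cadherin of basal epithelial cells, was at 57.8, 25.9, 49.6 and 64.0 FPKM.

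Among the EMT transcription factors, Twist1 had the highest level in 3 of the 4 lines and Snai1 in AOC11. Twist1 (ENSMUSG00000035799.6, chr12:33957671-33959829) was at 16.4 FPKM in AOC3 and 14.5 in AOC3-LN, against 4.69 in AOC11 and 16.0 in AOC11-LN. AOC11 alone was low, and the other 3 lines lay between 14.5 and 16.4 FPKM. Snai1 (ENSMUSG00000042821.7, chr2:167538195-167542814) was at 6.25 FPKM in AOC3 and 2.41 in AOC3-LN, against 5.96 in AOC11 and 7.05 in AOC11-LN. Here AOC3-LN alone was low. Zeb2 (ENSMUSG00000026872.17, chr2:44983632-45117395, minus strand) was at 2.45 FPKM in AOC3 and 2.88 in AOC3-LN, against 0.451 in AOC11 and 1.93 in AOC11-LN. Both lines of mouse 3 lay above both lines of mouse 11, and AOC11 had the lowest level, as it did for Twist1. The antisense gene Zeb2os was at 0.431, 0.380, 0.0285 and 0.372 FPKM, also lowest in AOC11, and the same limit on strand applies to it. Snai2 (ENSMUSG00000022676.7, chr16:14705852-14709385), which encodes Slug, was at 0.702, 0.740, 0.482 and 1.21 FPKM, so it passed 1 FPKM in AOC11-LN alone. Zeb1 (ENSMUSG00000024238.15, chr18:5591860-5775467) was at 0.196, 0.0811, 0.130 and 0.0625 FPKM, below the filter in every line. On its opposite strand Gm10125 was at 0.0762, 0.04, 0.007 and 0.0651 FPKM, with the same limit on strand. Zeb2 exceeded Zeb1 by a factor of 12.5 in AOC3 and 35.6 in AOC3-LN, against 3.47 in AOC11 and 30.9 in AOC11-LN.

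The paralogs Snai1 and Snai2, like Twist1, have 1 annotated transcript each, so the number of fragments behind their values could be estimated. Twist1 rested on about 809 fragments in AOC3 and 606 in AOC3-LN, against 229 in AOC11 and 764 in AOC11-LN. Snai1 rested on 307, 100, 290 and 335 fragments, and Snai2 on 44, 39, 30 and 73. These numbers set how finely a single library can place each gene, and they are coarsest for Snai2. All intervals made from them cover counting error only, since duplicates of a molecule are not known.

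Both splicing regulators were expressed in every line. Esrp1 (ENSMUSG00000040728.15, chr4:11331933-11386783, minus strand) was at 56.8 FPKM in AOC3 and 53.5 in AOC3-LN, against 56.9 in AOC11 and 54.2 in AOC11-LN. Its spread within a mouse, pooled over both mice, was the lowest of the 8 genes past 1 FPKM (SD 0.06 on the log2 scale used below), and the lines of both mice overlapped. Esrp2 (ENSMUSG00000084128.10, chr8:106130319-106136974, minus strand) was at 8.42, 8.45, 14.1 and 17.0 FPKM, higher in both lines of mouse 11. Esrp1 exceeded Esrp2 by a factor of 6.75 in AOC3 and 6.33 in AOC3-LN, against 4.05 in AOC11 and 3.20 in AOC11-LN. Esrp2 overlaps Nfatc3 on the opposite strand, which was at 14.6, 15.4, 20.5 and 14.6 FPKM and did not follow the pattern of Esrp2 across the lines. It also overlaps 1810019D21Rik on that strand, at 2.39, 2.75, 1.94 and 3.42 FPKM. The limit on strand given for Fn1 applies to Esrp2 as well, and the part of these genes in its values was not tested.

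**Figure D2:**
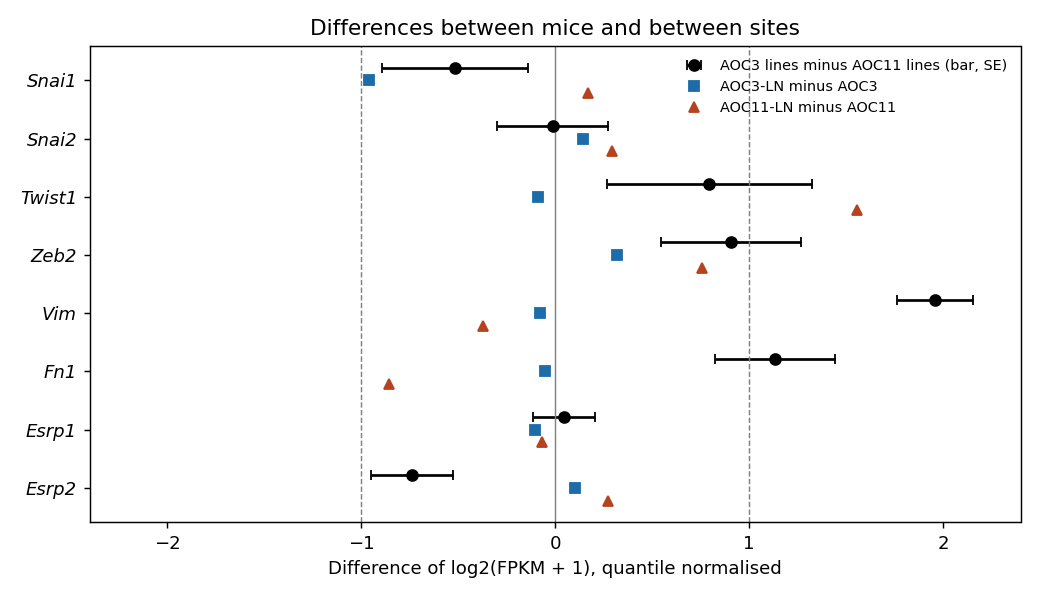
Differences of log2(FPKM + 1) after quantile normalisation for the 8 genes past 1 FPKM, between the mice (black circles, bars are limma standard errors) and between the lymph node line and the primary line in mouse 3 (squares) and mouse 11 (triangles). Vim and Fn1 lay beyond the dashed line at 1 between the mice, and Twist1 alone lay beyond it between sites, in mouse 11.

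The lines of mouse 3 were then compared with the lines of mouse 11 on the scale of log2(FPKM + 1) after quantile normalisation, which understates the change of low genes. Vim was higher in the mouse 3 lines by 1.96 ± 0.19 (limma standard error), which is 3.89-fold on this scale. Fn1 was higher by 1.13 ± 0.31. Vim and Fn1 were the 2 genes of the 8 past a difference of 1, both toward mouse 3, where 11.1% of the 14165 genes passed it in either direction and 5.10% passed it toward mouse 3. Zeb2 was higher in the mouse 3 lines by 0.91 ± 0.36 and Twist1 by 0.80 ± 0.53. Esrp2 differed by -0.74 ± 0.21 and Snai1 by -0.52 ± 0.38, both lower in mouse 3. Esrp1 differed by 0.05 ± 0.16 and Snai2 by -0.01 ± 0.29. The median of the 8 genes was 0.42, beside 0.01 over all genes, and it was 0.05 without AOC11. Without AOC11-LN it was 0.70 over 7 genes, since Snai2 reached 1 FPKM in that line alone and dropped out.

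None of the 8 genes passed limma with Benjamini-Hochberg adjustment over the 14165 genes at 0.05, a threshold that 0.205% of all genes passed. Vim came nearest with an adjusted p of 0.0570. The adjusted p was 0.178 for Fn1, 0.187 for Esrp2, 0.275 for Zeb2, 0.464 for Twist1, 0.498 for Snai1, 0.888 for Esrp1 and 0.988 for Snai2. At an unadjusted p under 0.05, limma called 3 of the 8, namely Vim, Fn1 and Esrp2, beside 18.7% of all genes. Vim was called when limma was fitted to protein-coding genes alone (adjusted p = 0.0195) or to genes with at least 5 FPKM in 1 line (adjusted p = 0.0455), and its adjusted p ranged from 0.0195 to 0.419 over the alternatives. Both lines of a mouse stood in place of replicates here, so these values compare 4 lines and not mice in general.

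The difference in Vim had the same direction at both sites. It was 1.81 between the primary lines and 2.11 between the lymph node lines. The FPKM ratio of AOC3 to AOC11 was 3.45 and that of AOC3-LN to AOC11-LN was 4.36. For Fn1 the difference was 0.73 between the primary lines and 1.54 between the lymph node lines, and without AOC11-LN the difference between the mice was 0.70 and no longer past 1. For Zeb2 it was 1.13 between the primary lines and 0.69 between the lymph node lines. Zeb2 was past 1 without AOC3 (1.07) or without AOC11-LN (1.28) and was at 0.51 without AOC11, and a pseudocount of 0.1 in place of 1 gave 1.45 over all 4 lines. Twist1 differed by 1.62 between the primary lines and by -0.03 between the lymph node lines, so that leaving out AOC11-LN gave 1.60 and leaving out AOC11 gave 0.02. Snai1 had 0.05 between the primary lines and -1.08 between the lymph node lines, and its difference was -0.04 without AOC3-LN. Esrp2 differed by -0.65 and -0.82. Vim, Fn1, Zeb2, Esrp1 and Esrp2 thus kept 1 sign at both sites, although Esrp1 differed by 0.07 and 0.03 and turned to -0.01 over both sites without quantile normalisation. The share of all genes that kept 1 sign was not counted. Genes without overlap between the mice always keep it, so that share is at least 53.4%, and 5 of 8 is not read as a trait of these genes. The lines of a mouse did not overlap with those of the other for Vim, Fn1, Zeb2 and Esrp2, which is 4 of 8, beside 53.4% of all genes.

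**Figure D3:**
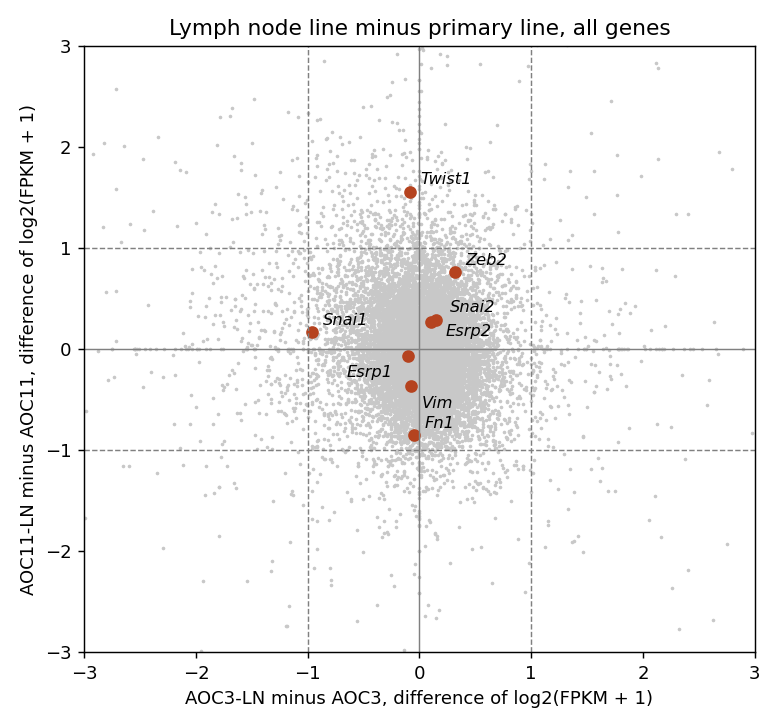
Lymph node line minus primary line for every gene past 1 FPKM, mouse 3 on the horizontal axis and mouse 11 on the vertical axis, in differences of log2(FPKM + 1), with 8 of the 10 genes in red and 203 genes outside the axes. Twist1 lay at 1.56 in mouse 11 and near 0 in mouse 3, Snai1 lay at -0.96 in mouse 3, and the other 6 genes lay within 1 of 0 in both mice.

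The comparison of each lymph node line with its primary line asks whether the EMT genes moved with the site. It has no replicates and hence no test. In mouse 3, none of the 8 genes passed a difference of 1 in either direction, while 5.53% of all genes did. Snai1 came nearest with -0.96, which was -1.09 without quantile normalisation, and its FPKM ratio of AOC3-LN to AOC3 was 0.385 (95% exact counting interval 0.304 to 0.484). Vim, Fn1, Esrp1 and Twist1 shifted by -0.08, -0.05, -0.10 and -0.09 in this mouse. In mouse 11, Twist1 was the 1 gene of the 8 past 1, at 1.56, while 8.11% of all genes passed in either direction and 4.97% passed toward AOC11-LN. The FPKM ratio of Twist1 in AOC11-LN to AOC11 was 3.42 (95% interval 2.95 to 3.98). The median shift of the 8 genes was -0.06 in mouse 3 and 0.22 in mouse 11, beside 0.02 and -0.02 over all genes.

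In mouse 11 the transcription factors did not all shift the same way, and single libraries allow no test. The shifts of Twist1, Zeb2, Snai2 and Snai1 toward AOC11-LN were 1.56, 0.76, 0.29 and 0.17. Zeb1, left out by the filter, went the other way, from 0.130 to 0.0625 FPKM. Taken on the longest of its 12 transcripts, this is about 25 against 11 fragments, an approximate ratio of 0.457 (95% interval 0.203 to 0.962). Zeb1 was also lower in the lymph node line of mouse 3, at about 37 against 13 fragments, a ratio of 0.418 (95% interval 0.204 to 0.804). Both ratios of Zeb1 carry the limit on strand given above. Snai2 passed the filter through AOC11-LN alone. The shifts of Fn1 and Vim were -0.85 and -0.37. Snai2 moved from 0.482 to 1.21 FPKM, a ratio of 2.50 (95% interval 1.62 to 3.97), beside 0.29 on the log2 scale with pseudocount and normalisation and 0.57 without quantile normalisation. Zeb2, from 0.451 to 1.93 FPKM, was past 1 at 1.01 without quantile normalisation. In mouse 3 the ratio of Snai2 was 1.05 (95% interval 0.664 to 1.65), so a change was not detectable at this depth. Esrp1 and Esrp2 shifted by -0.07 and 0.27 in mouse 11.

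The other EMT-linked transcription factors held 21 genes, 19 of which were in the table and 17 of which reached 1 FPKM. Hmga2 and Prrx1 were past 1 toward mouse 3, and Prrx2 and Klf8 were past 1 toward mouse 11. On this list limma called none after adjustment and 5 of the 17 at an unadjusted p under 0.05, and over all genes 11.1% were past 1 and 18.7% were under that p. The median difference of the list was 0.32. Prrx1, a homeobox factor of mesenchymal tissue, was at 9.69 FPKM in AOC3 and 18.3 in AOC3-LN, against 0.0593 in AOC11 and 0.569 in AOC11-LN. It was higher in the mouse 3 lines by 3.55 ± 0.40 (limma adjusted p = 0.0653). Hmga2, a chromatin protein that can induce Snai1 and Twist1, was at 171, 130.2, 28.8 and 40.4 FPKM and was higher in the mouse 3 lines by 2.15 ± 0.26 (limma adjusted p = 0.0740). Prrx2 was at 1.94, 0.741, 2.09 and 9.34 FPKM and shifted by 1.62 in mouse 11. Id2, an inhibitor of E-box-binding proteins, was at 16.7, 12.3, 31.6 and 7.96 FPKM and shifted by -1.86 in mouse 11. Twist2, the paralog of Twist1, was at most 0.0263 FPKM in any line.

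Most epithelial transcription factors were expressed in every line, with 8 or 9 of 13 genes at 1 FPKM or more. In at least 1 line 10 genes reached 1 FPKM, with 2 past 1 toward mouse 3 and 1 toward mouse 11, none called by limma after adjustment and 4 at an unadjusted p under 0.05, beside 11.1% and 18.7% of all genes past 1 and under that p. Grhl2, which keeps Cdh1 and other junction genes active, was at 21.1, 18.8, 18.8 and 19.5 FPKM. Ovol1 and Ovol2, zinc finger factors that repress Zeb1, were at 1.12, 1.92, 2.92 and 1.72 FPKM and at 3.30, 4.24, 5.34 and 6.13 FPKM. Klf4, a factor of squamous differentiation, was at 8.09, 17.7, 5.17 and 5.39 FPKM and shifted by 1.12 in mouse 3. Trp63, the factor of basal squamous cells, was at 1.69, 2.10, 0.0848 and 0.841 FPKM. Grhl1 was at 0.184, 0.628, 2.51 and 1.89 FPKM. Klf4 and Trp63 were past 1 toward mouse 3 and Grhl1 toward mouse 11.

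**Figure D4:**
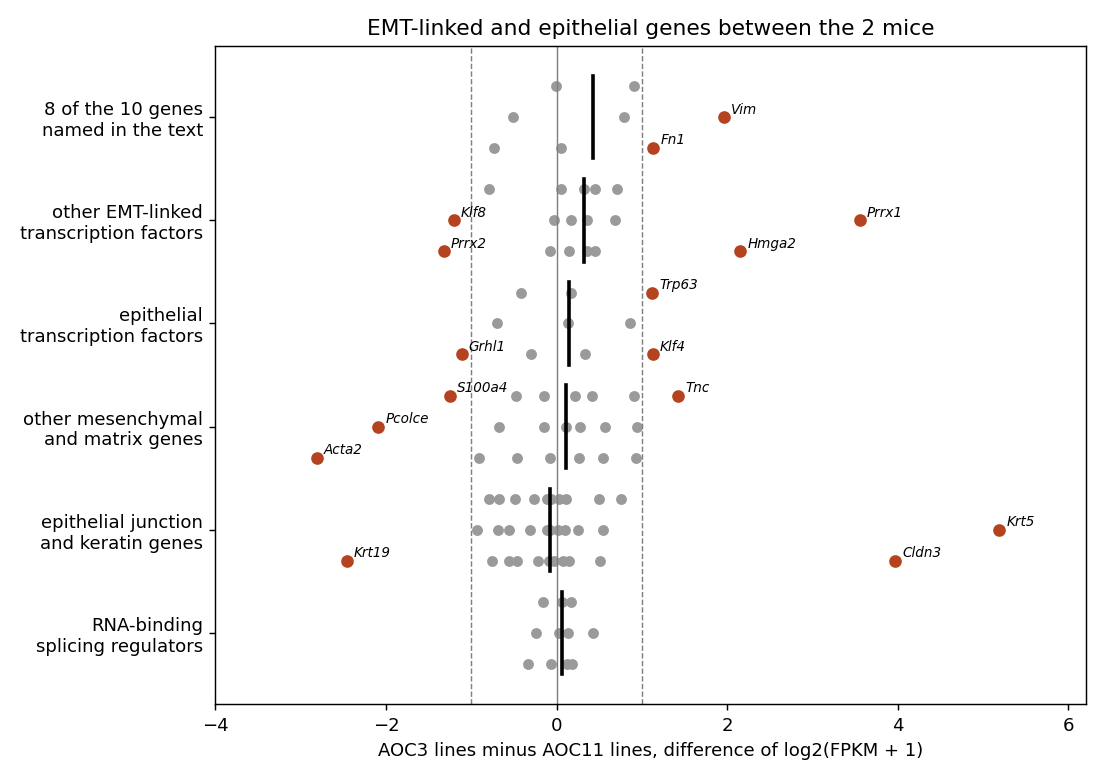
Difference of log2(FPKM + 1) between the lines of mouse 3 and mouse 11 for each gene of the 10 and of 5 further lists that reached 1 FPKM, with 1 point per gene, a black bar at the median of the list and red points with names past 1 in either direction. The medians ran from -0.08 to 0.42. Of the 21 other mesenchymal and matrix genes, 3 lay past 1 toward mouse 11 and 1 toward mouse 3, while Vim and Fn1 lay past 1 toward mouse 3.

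The other mesenchymal and matrix genes were split between the mice. Of 29 genes, 21 reached 1 FPKM, 1 was past 1 toward mouse 3 and 3 were past 1 toward mouse 11, with a median of 0.11, none called by limma after adjustment and 7 at an unadjusted p under 0.05. Over all genes 11.1% were past 1 and 18.7% were under that p. The 1 gene toward mouse 3 was Tnc, which encodes the matrix protein tenascin-C, at 129, 123 and 37.3 FPKM in AOC3, AOC3-LN and AOC11 and 60.5 in AOC11-LN, with a difference of 1.42 ± 0.27 (limma adjusted p = 0.115). Acta2, the actin of smooth muscle and myofibroblasts, was at 0.0445 FPKM in AOC3 and 0.00157 in AOC3-LN, against 5.79 in AOC11 and 6.97 in AOC11-LN. It differed by -2.81 ± 0.26 (limma adjusted p = 0.0505). Pcolce, an enhancer of collagen processing, was at 3.07, 2.20, 12.2 and 18.5 FPKM and differed by -2.09 ± 0.28 (limma adjusted p = 0.0819). Lox, the collagen crosslinking enzyme, was at 1.39, 0.0409, 1.66 and 0.0537 FPKM, with shifts of -1.14 and -1.45, lower in the lymph node line of both mice. Loxl2, of the same enzyme family, was at 2.78, 0.648, 0.294 and 0.371 FPKM, with shifts of -1.10 and -0.08. Of these 21 genes, 3 were past 1 toward AOC3 and none toward AOC3-LN in mouse 3, and 1 was past 1 toward AOC11 and 1 toward AOC11-LN in mouse 11, beside 5.53% and 8.11% of all genes past 1 in the respective mouse.

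Of the epithelial junction and keratin genes, 30 or 31 of 32 were at 1 FPKM or more in each line. All 32 genes reached 1 FPKM in at least 1 line, 2 were past 1 toward mouse 3 and 1 toward mouse 11, and the median was -0.08, with none called by limma after adjustment and 9 at an unadjusted p under 0.05. The share past 1 was near that of all genes, 11.1%, and 18.7% of all genes were under that p. Cdh1 differed by -0.12 ± 0.17 and Epcam by 0.25 ± 0.17. Krt5, a keratin of basal cells, was at 499, 275, 4.99 and 17.0 FPKM and was higher in mouse 3 by 5.19 ± 0.59 (limma adjusted p = 0.0685). Krt19, a keratin of simple epithelia, was at 3.65, 50.1, 111 and 63.3 FPKM. The tight junction gene Cldn3 was at 197 FPKM in AOC3 and 242 in AOC3-LN, against 0.0550 in AOC11 and 186 in AOC11-LN, a shift of 7.43 in mouse 11. AOC11 therefore stood apart from the other 3 lines for Cldn3 as for Twist1 and Zeb2. The part of that library in these values was not tested.

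The RNA-binding regulators of epithelial and mesenchymal splice forms stayed within 1 of 0 where tested. Of 12 genes, 11 reached 1 FPKM and none was past 1 in any of the 3 comparisons, with a median of 0.06 between the mice. Over all genes 11.1% were past 1 between the mice, 5.53% in mouse 3 and 8.11% in mouse 11. With 11 genes, a count of 0 past 1 is near those shares. On this list limma called none after adjustment and 0 at an unadjusted p under 0.05, beside 18.7% of all genes. Rbfox2, which favours mesenchymal splice forms, was at 32.5, 28.5, 25.5 and 30.8 FPKM. Rbm47, which favours epithelial ones, was at 12.8, 12.2, 19.0 and 15.3 FPKM. Qk had the largest difference between the mice on this list, at 0.43 ± 0.22, with 60.9, 57.9, 54.9 and 38.1 FPKM. Mbnl2 was at 53.0, 33.5, 56.1 and 33.2 FPKM and shifted by -0.66 and -0.73. Hnrnpm was at 119, 123.9, 147 and 145 FPKM.

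**Figure D5:**
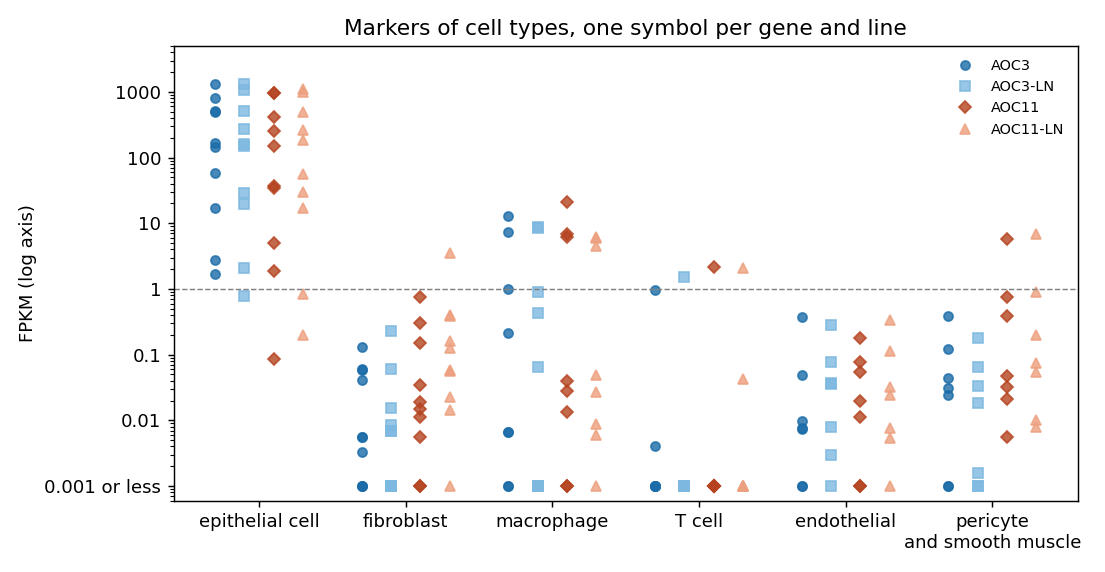
FPKM of markers of 6 cell types on a log axis, 1 symbol per gene and line, with values of 0.001 or less drawn at 0.001 and a dashed line at 1 FPKM. Between 8 and 10 of the 10 epithelial markers lay at 1 FPKM or more in each line, while all fibroblast markers but Postn and all endothelial markers lay below 1 FPKM in every line.

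The labelled cell type, oral cancer, was checked against epithelial markers, and the mesenchymal values were set beside markers of other cells. Of 10 epithelial markers, 10, 9, 9 and 8 were at 1 FPKM or more in AOC3, AOC3-LN, AOC11 and AOC11-LN, led by Krt18 at 1307, 1322, 957 and 1115 FPKM. The summed level of 10 fibroblast markers was 0.306 FPKM in AOC3 and 0.330 in AOC3-LN, against 1.30 in AOC11 and 4.76 in AOC11-LN. Postn alone was at 3.54 FPKM in AOC11-LN, and Col1a1, Col1a2, Col3a1, Dcn, Lum and Pdgfrb were each at 0.407 FPKM or less in every line. Vim and Fn1 were highest in the mouse 3 lines, where these sums were lowest. Not every marker followed the sums, as Col1a2 was highest in AOC3, at 0.0611 FPKM. The part of other cells in the Vim and Fn1 values was not tested. The 7 endothelial markers summed to between 0.339 and 0.513 FPKM, led by Pecam1, with Emcn at 0 in every line. Of 7 pericyte and smooth muscle markers, Acta2 alone reached 1 FPKM, and the sums were 0.608, 0.299, 7.02 and 8.22 FPKM.

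Of 8 macrophage markers, 3 reached 1 FPKM in at least 1 line, namely Cd68, Cd14 and Csf1r, and the sums were 21.5, 18.7, 33.8 and 16.8 FPKM. Csf1r was at 20.8 FPKM in AOC11, Adgre1 was at 0 in every line and Ptprc was at most 0.0640 FPKM. Of 7 T cell markers, Trac alone reached 1 FPKM, at up to 2.13 FPKM in AOC11, with Cd3e, Cd4, Cd8a and Cd2 at 0 in every line, and the sums ran from 0.965 to 2.13 FPKM.

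Vim and Twist1 had the widest range of log2 values of the 8 genes, 2.18 and 1.62. Over the 4 lines, the 3 protein-coding genes closest to each were found among 11379 by the Euclidean distance of log2 values centred on their mean. Closest to Vim were Dpp7 (distance 0.25), Sgsm1 (0.26) and Zfp993 (0.27). Closest to Twist1 were Vldlr (0.16), AC129217.1 (0.22) and Prss8 (0.31). Vldlr was at 2.80, 2.43, 0.338 and 3.27 FPKM, low in AOC11 alone like Twist1, and Prss8, a protease of epithelial surfaces, was at 8.02, 8.05, 2.50 and 7.43 FPKM. With 4 points, many genes lie close to any pattern, so these names describe the lines only.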

How the data were processed

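RNA was isolated from cultured cells with TRIzol, and stranded mRNA libraries were sequenced as paired-end reads, 1 library for each of the 4 lines. Per the labels and the study's methods, the authors trimmed reads with Trim Galore, mapped them to mm10 with TopHat2 and deposited FPKM values from Cufflinks on GENCODE M21 with default parameters; tool versions are not given in the sources used here. The deposited values are neither log-transformed nor quantile-normalised. Gene names and positions are those of GENCODE M21, counted from 1.

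Values were taken as log2(FPKM + 1) and quantile-normalised over 34721 entries, after which genes below 1 FPKM in all lines were dropped, leaving 14165. A log2 difference past 1 in either direction was counted. limma 3.58.1 in R 4.3.3 (lmFit, eBayes with trend, Benjamini-Hochberg over all genes kept, threshold 0.05) used the 2 lines of a mouse in place of replicates. It was also run on simulated libraries with a common spread and no difference between sites. That run does not show how limma performs on lines from different sites. The labels give no separate cultures. The p-values set the difference between mice against the spread between the primary and lymph node line of a mouse. In that spread, site and library cannot be told apart. Alternatives were a pseudocount of 0.1, no quantile normalisation, scaling to the median, no filter or a filter of 5 FPKM, a 1.5-fold threshold, leaving out each line, each site alone, protein-coding genes only, eBayes without trend and, added later, site as a block.

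Depth was estimated from the steps of low FPKM values of genes with 1 transcript. It was about 33730000 fragments for AOC3 and 28325000 for its lymph node line, and 33860000 for AOC11 and 32480000 for AOC11-LN. Between 64.9% and 68.2% of low values fell within 0.1 of a whole number of fragments, against 20% by chance, so fragment numbers and their 95% intervals are approximate and cover counting error only.

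The 10 genes and all lists were chosen with earlier results of these data known. Named genes were the 10, the 3 of each further list with the largest difference between mice, the 2 with the largest lymph node shift, 11 genes fixed in advance by name and the highest marker of each cell type. Klf8 and some markers were named after their values were seen. A few genes of the lists are not reported here and were left out of the list counts. Snai3 and Foxc2 were not analysed here.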

Additional observations from a re-analysis of the deposited data

Results flagged for a closer look

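Several genes shifted in opposite directions from primary to lymph node line in the 2 mice, by amounts more than 1 log2 unit apart. Each shift is 1 library against 1, and the differences between mice were not tested. Among the 10 genes, the shift of Twist1 in AOC11-LN exceeded that in AOC3-LN by 1.65, with 1.56 against -0.09. The shift of Snai1 in AOC11-LN exceeded that in AOC3-LN by 1.13, with 0.17 against -0.96.

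Of the other named genes, Krt5 had 2.46, Prrx2 2.25 and Cdh3 1.498 for the shift in AOC11-LN minus that in AOC3-LN. The same quantity was -4.35 for Krt19, -1.37 for Ovol1, -1.14 for Klf4 and -1.04 for Grhl1.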

How the results depend on the processing

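With site as a replicate block, an alternative chosen after seeing the data that leaves 1 residual degree of freedom, limma called 0 of the 8 genes (Vim adjusted p = 0.0681) and 31 of all genes. Without quantile normalisation, with scaling to the median and with a pseudocount of 0.1, Snai1 passed 1 toward AOC3 (1 gene of the 8 in mouse 3) and Zeb2 joined Twist1 toward AOC11-LN (2 genes in mouse 11). Median scaling moved the median shift of all genes in mouse 11 from -0.02 to 0.16. A 1.5-fold threshold gave 5 genes of the 8 and 3814 of the 14165 genes between the mice. Within the mice it gave 1 gene of the 8 in mouse 3 and 3 in mouse 11. The shares of all genes within a mouse were not counted under these alternatives. In the values reported, at a difference of 1, they were 5.53% in mouse 3 and 8.11% in mouse 11. More genes pass at 1.5-fold, so these shares are no background for the counts at that threshold. A pseudocount of 0.1 gave 3 of the 8 genes, with Zeb2 at 1.45 in place of 0.91, and 2627 of the 14165 genes between the mice. With a filter of 5 FPKM limma called 1 of the 6 genes tested, Vim, and 50 of all 10565. With protein-coding genes alone it called 1 of the 8, Vim, and 256 of all 11380. With no filter it called 0 of all genes, where 4247 of 34721 had an unadjusted p under 0.05, beside 29 called in the fit reported. The cause was not tested.

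Leaving out each line gave between 2 and 3 of the genes past 1, between 1461 and 1956 of all genes, and medians of the genes between 0.05 and 0.70. limma then called 0 of the 10 genes and between 0 and 4 of all genes, with 0 without AOC3, AOC11 or AOC11-LN and 4 without AOC3-LN, and between 1075 and 2911 at an unadjusted p under 0.05. The median between the lymph node lines alone was 0.0011. Of 185 values of single genes under the alternatives, 163 kept their sign and their side of 1, 15 crossed 1, and 7 changed sign, none of which was past 1 in the values reported. Between the mice Esrp1 turned to -0.0109 without quantile normalisation. Leaving out each line gave between -0.0029 (without AOC3) and 0.0980 for Esrp1, and between -0.1632 (without AOC11) and 0.0573 (without AOC3) for Snai2. Esrp1 in AOC11-LN shifted by 0.08 with median scaling. Between the primary lines alone Snai1 was at 0.05 and Snai2 at 0.06, and between the lymph node lines alone Twist1 was at -0.03. The values of Snai2, near 1 FPKM, rest on few fragments, between 30 in AOC11 and 73 in AOC11-LN.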
